A study of Bos taurus with 9 samples.

Results

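Immediate early genes are switched on within minutes of a stimulus without new protein synthesis, and many of them encode transcription factors. The set described here was fixed by symbol as FOS, JUN, JUNB, JUND, EGR1, ATF3, IER2, IER3, KLF6 and KLF4. Every probe set that the platform annotation assigns to 1 of these symbols alone was taken, over all arrays. This gave 19 probe sets for 9 of the 10 genes, out of 24016 probe sets outside the manufacturer's controls. JUN has 5 probe sets, JUND and IER2 have 3 each, FOS and EGR1 have 2 each, and JUNB, ATF3, IER3 and KLF4 have 1 each. KLF6 has none and was not analysed here. Of the 19 probe sets, 17 passed the filter on dim signals and were tested, and the other 2, of JUN and IER2, are given as intensities alone.

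The cells were Bos taurus nucleus pulposus cells, from the soft centre of the disc between vertebrae of the tail, taken from young calves and grown in DMEM with fetal bovine serum. One group of 3 arrays came from untreated cells, and the 2 others of 3 arrays each came from cells brought with salt to 500 mOsm/kg for 5 h or 24 h. No time is given for the untreated cells, which serve as the control of both time points, so time in culture and salt cannot be told apart. The labels call the 3 arrays of a group biological replicates without naming animals, and the tests therefore rest on the spread between these cultures, which may be technical.

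JUN, JUNB and JUND pair with FOS, with each other or with ATF3 through a basic leucine zipper and form AP-1, a dimeric factor that binds DNA and controls growth, stress and matrix protease genes. EGR1 is a zinc finger factor induced by growth factors through MAP kinases and serum response factor. ATF3 is induced by many kinds of stress and often represses transcription, IER2 and IER3 are small proteins named for their rapid induction, and KLF4 is a Krüppel-like zinc finger factor. Most of these transcripts are short-lived, and cells in serum already express them. The disc core is normally hyperosmotic, and its cells meet changes of osmolality with each cycle of load.

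Intensities are on the linear scale of the deposited table. Differences are in log2(intensity + 16), a scale that understates changes of dim probe sets. A probe set is called where limma's Benjamini-Hochberg adjusted p over all 18012 tested probe sets is under 0.05. Arrays with the same replicate number varied together, most of all those numbered 3. A match of numbers 1 and 2 between groups was not shown. Where it changes a call, the adjusted p with replicate number as a model block (here "with the block") stands beside the main one. The first principal component (47.7% of variance) separated the arrays numbered 3 from those numbered 1 and 2 in every group. Array medians ranged from 67.1 to 84.5. Within each replicate number the median was lowest at 5 h and highest at 24 h. In replicates 1, 2 and 3 it was 80.9, 79.3 and 69.3 in control and 71.2, 75.2 and 67.1 at 5 h. At 24 h it was 83.65, 84.5 and 74.8. The labelled cell type was checked against 7 measured nucleus pulposus markers, of which 5 passed the filter, with mean control intensities of 1261 for ACAN, 1638 for CDH2, 4336 for HIF1A, 182 for COL2A1 and 21.4 for KRT18. The keratin genes KRT8 and KRT19 did not pass it. Summed over each list, control arrays gave 6485 to 8094.5 for the nucleus pulposus markers and 11329 to 17908 for 6 fibroblast markers. These levels therefore do not tell nucleus pulposus from fibroblast-type cells.

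In outline, JUN was lower and IER3 higher at both times, ATF3 was higher at 24 h and, with the block, at 5 h, EGR1 was lower at 5 h than at 24 h, and JUND was higher at 24 h, as was FOS with the block. At 5 h, 1 of the 17 tested probe sets was called higher (IER3) and 1 lower (JUN), where 0.233% of all tested probe sets were called higher and 0.25% lower. With the block 2 were called higher (IER3 and ATF3) and 5 lower (4 of JUN and 1 of EGR1), against 2.45% and 3.41% of all. At 24 h, 3 were called higher (ATF3, JUND and IER3) and 1 lower (JUN), against 4.28% and 4.32% of all. With the block 5 were called higher, FOS adding 2, and 4 lower, all of JUN, against 18.3% and 17.5%. Probe sets of 1 gene are not independent, so the 4 of JUN and the 2 of FOS do not stand for separate genes in these counts.

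Between 24 h and 5 h, 1 probe set was called higher (EGR1) and 0 lower, against 8.01% and 6.15% of all. At an unadjusted p under 0.05, 4 were higher (EGR1, 2 of FOS and JUND) and 0 lower, against 16.2% and 12.8% of all. With the block the higher calls were 4 (EGR1, 2 of FOS and JUND) and the lower calls 0, against 24.2% and 19.6%. The median difference over the 17 probe sets was -0.12 at 5 h, -0.08 at 24 h and 0.30 between the times, beside -0.03, 0.02 and 0.06 over all tested probe sets. Centring each array on its median shifted that last value to -0.10. With this centring, calls among all probe sets changed from 42 higher and 45 lower to 34 and 23 at 5 h. They changed from 771 and 779 to 503 and 827 at 24 h, and from 1443 and 1108 to 806 and 1608 between the times.

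**Figure D1:**
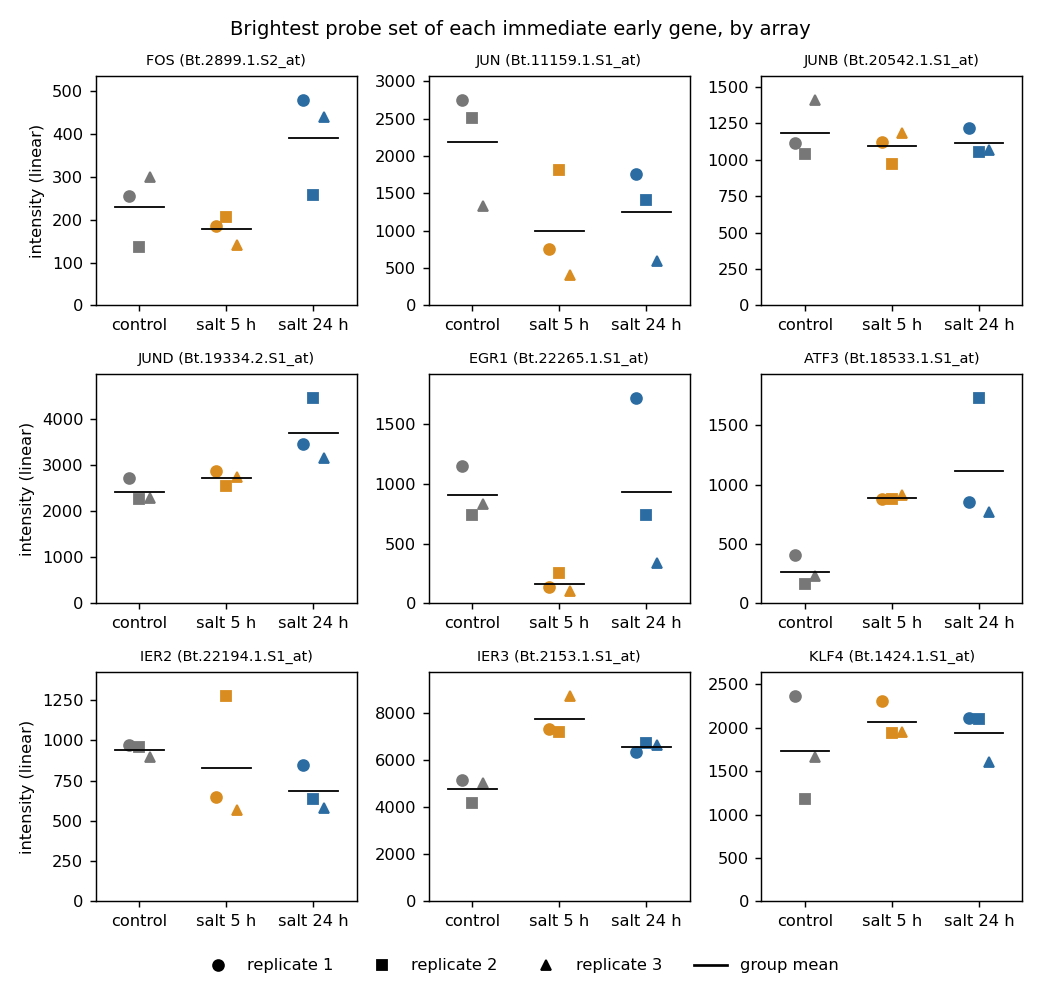
Intensity of the brightest tested probe set of each of 9 genes on each of 9 arrays (y axis, linear scale from 0; x axis, group), with a symbol for each replicate number and a line at the group mean. ATF3 and IER3 have all 5 h and 24 h arrays above all control arrays, and EGR1 has all 5 h arrays below both other groups.

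**Figure D2:**
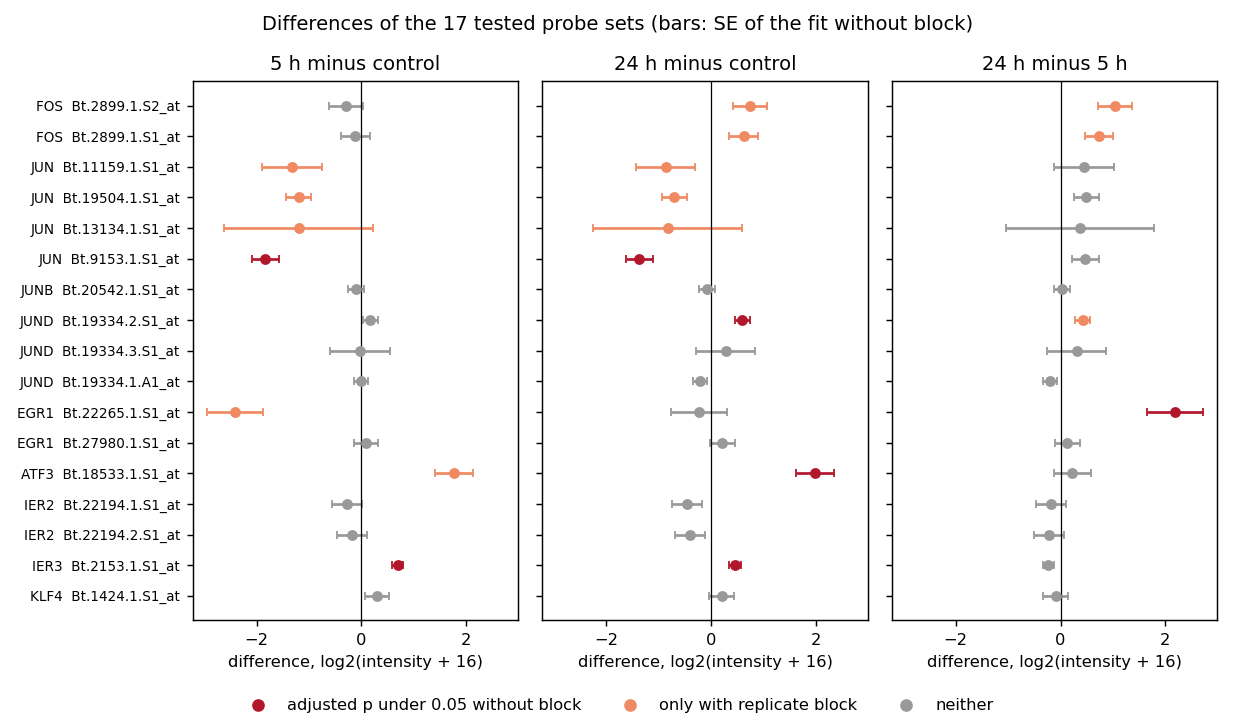
Difference between group means in log2(intensity + 16) for the 17 tested probe sets in the 3 comparisons, with bars of 1 SE of the fit without block. Dark points were called without the block and lighter points with the block alone; all 4 tested JUN probe sets lie left of 0 in both comparisons with control.

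JUN, the founding subunit of AP-1, was lower after salt on each of its tested probe sets. On Bt.9153.1.S1_at the intensities were 251, 234 and 279 in control replicates 1, 2 and 3, then 41.3, 96.8 and 51.1 at 5 h, and 102, 90.2 and 76.2 at 24 h. Every salt array lay below every control array. JUN on this probe set fell by 1.84 ± 0.26 at 5 h (SE, 3 arrays a group; adjusted p = 0.029) and by 1.37 ± 0.26 at 24 h (adjusted p = 0.017). The 5 h call held in 2 of 9 refits that each left out 1 array, and ended without any 1 control array, without 5 h replicate 1 or 3, or without 24 h replicate 1 or 2 (adjusted p up to 0.12). The 24 h call ended without control replicate 2 or 3 or 24 h replicate 1 or 2 (up to 0.063). With the block both calls held in all 9 refits.

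The other tested JUN probe sets were called with the block alone. On Bt.19504.1.S1_at the control intensities were 1442, 1941 and 2241, those at 5 h were 587, 1099 and 786, and those at 24 h were 1232, 1039 and 1112. Here too every salt array lay below every control array, with differences of -1.19 ± 0.24 at 5 h (adjusted p = 0.092, and 0.0060 with the block) and -0.71 ± 0.24 at 24 h (0.11, and 0.015 with the block). The blocked 5 h call ended without control replicate 3 (adjusted p = 0.0502), and the blocked 24 h call without that array or 24 h replicate 2 or 3 (up to 0.095).

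On Bt.11159.1.S1_at the values were 2745, 2508 and 1330 in control, 759, 1816 and 410.1 at 5 h, and 1760.5, 1412 and 592 at 24 h. On Bt.13134.1.S1_at they were 1044, 973 and 84.3 in control, 269, 740 and 24.3 at 5 h, and 696, 561 and 29.9 at 24 h. The groups overlapped on both probe sets, because replicate 3 was the lowest of its group each time, while within each replicate number the salt arrays were below the control array. The log2 differences were -1.32 and -1.20 at 5 h (adjusted p = 0.67 and 0.9998, and 0.015 and 0.033 with the block), and -0.87 and -0.83 at 24 h (0.43 and 0.83, and 0.023 and 0.040 with the block).

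Those blocked calls held in 5 of 9 refits at 5 h for both probe sets, and in 5 and 4 of 9 at 24 h. At 5 h they ended without control replicate 1 or 3 or 5 h replicate 1 or 3 (adjusted p up to 0.16). At 24 h they ended without control replicate 1 or 3 or 24 h replicate 2 or 3, and for Bt.13134.1.S1_at also without 5 h replicate 3 (up to 0.17). In the fit without the block, leaving out 24 h replicate 3 turned the 24 h difference of Bt.13134.1.S1_at to 0.44 (adjusted p = 0.88). The fifth JUN probe set, Bt.13134.1.A1_at, lay near the floor at 6.5 to 33.3 and was not tested. Between 5 h and 24 h JUN was not called on any of the 4 tested probe sets, with or without the block; the differences were 0.37 to 0.49, and replicate 2 was lower at 24 h than at 5 h on each of the 4.

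**Figure D3:**
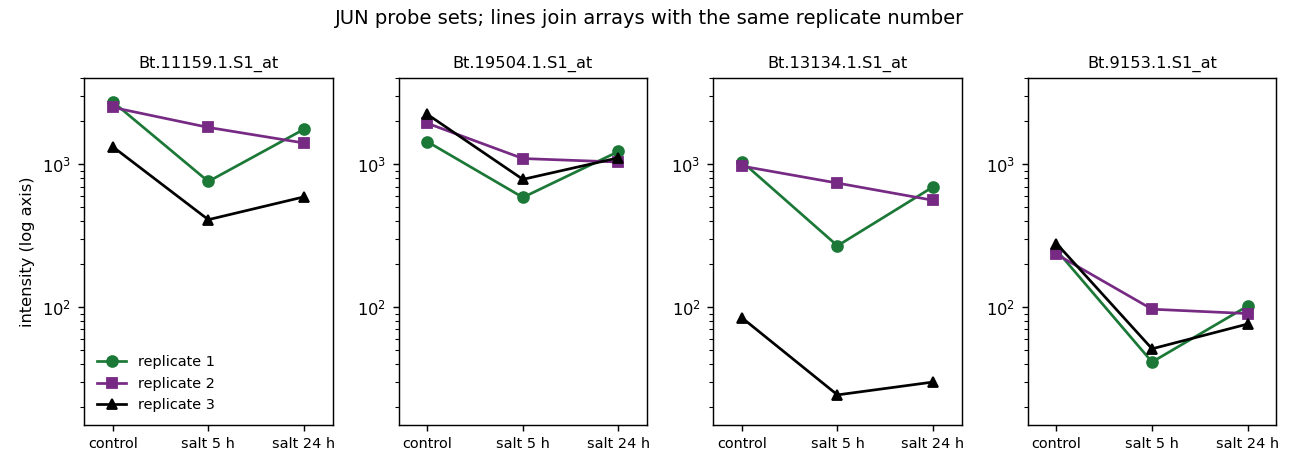
Intensity (log axis) of the 4 tested JUN probe sets in control, 5 h and 24 h arrays, with lines joining arrays of the same replicate number. Each line is lower at 5 h and 24 h than in control, and replicate 3 lies far below the others on Bt.13134.1.S1_at.

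JUND, the AP-1 subunit usually linked to quiescent cells and cell survival, was higher at 24 h. Its bright probe set, Bt.19334.2.S1_at, gave 2712, 2256 and 2293 in control, 2878, 2539 and 2750 at 5 h, and 3452, 4450.1 and 3164 at 24 h. The 24 h arrays lay above all others, while control and 5 h arrays overlapped. JUND rose by 0.59 ± 0.14 at 24 h (adjusted p = 0.037), while the 5 h difference was 0.17 ± 0.14 (adjusted p = 0.9998). Between 5 h and 24 h the difference was 0.42 ± 0.14 (adjusted p = 0.083, and 0.020 with the block).

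The 24 h call of JUND held in 3 of 9 refits without 1 array, ending without control replicate 2 or 3, 5 h replicate 1 or 3, or 24 h replicate 1 or 2 (adjusted p up to 0.13). It was 0.053 with arrays centred on their medians. With the block it held in 9 of 9 refits, and the blocked call between the times ended without 5 h replicate 1 or 2 or 24 h replicate 2 (up to 0.097). The 2 dim JUND probe sets, at 22.2 to 132 and 22.0 to 35.8, were not called in any comparison; their 24 h differences were 0.28 and -0.20.

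JUNB, an AP-1 subunit that often opposes JUN in growth control, kept close values throughout. Its intensities were 1111, 1040 and 1406 in control, 1124, 973 and 1185 at 5 h, and 1217, 1050 and 1069 at 24 h, with all groups overlapping. The differences were -0.11 ± 0.15 at 5 h and -0.08 ± 0.15 at 24 h (adjusted p = 0.9998 and 0.84), and the block gave no call.

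FOS, the partner that forms the classical AP-1 dimer with JUN, was dim to moderate and highest at 24 h. On Bt.2899.1.S2_at the intensities were 256, 136 and 299 in control, 185, 205 and 142 at 5 h, and 478, 257 and 439 at 24 h. On Bt.2899.1.S1_at they were 62.0, 39.8 and 59.6, then 51.0, 63.9 and 32.3, then 132, 74.4 and 73.5. On both, the 24 h arrays lay above all 5 h arrays, and each 24 h array was above the control array of its number.

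The FOS differences at 24 h were 0.75 ± 0.33 and 0.62 ± 0.27 (adjusted p = 0.21 for both, and 0.038 and 0.046 with the block). Between 5 h and 24 h they were 1.04 ± 0.33 and 0.74 ± 0.27 (0.066 and 0.11, and 0.0070 and 0.019 with the block). At 5 h they were -0.30 and -0.12 (0.9998 for both). With the block, the call of Bt.2899.1.S2_at between the times held in 9 of 9 refits, and that of Bt.2899.1.S1_at in 6, ending without 5 h replicate 1 or 3 or 24 h replicate 1 (adjusted p up to 0.10). The blocked calls against control held in 4 and 3 of 9 refits. Both ended without control replicate 1 or 2, 5 h replicate 1, or 24 h replicate 1 or 3 (up to 0.21), and that of Bt.2899.1.S1_at also without 24 h replicate 2.

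ATF3, the stress-induced member of the same leucine zipper family, had the greatest increase over control of the 9 genes. Its 1 probe set gave 410, 167.5 and 227 in control, 877, 877 and 913 at 5 h, and 856, 1725 and 765 at 24 h. Every salt array lay above every control array, the 5 h arrays were close together, and 24 h replicate 2 stood above the rest. ATF3 rose by 1.99 ± 0.36 at 24 h (adjusted p = 0.015), 4.16 times the control mean. At 5 h the difference was 1.76 ± 0.36 (adjusted p = 0.098, and 0.013 with the block), 3.31 times the control mean.

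By pair, the ATF3 difference was 1.07, 2.28 and 1.93 at 5 h and 1.03, 3.25 and 1.69 at 24 h, so replicate 1, whose control was the brightest, gave the smallest. Between the times the ATF3 difference was 0.23 ± 0.36 (adjusted p = 0.76), with -0.04, 0.96 and -0.25 by pair, and it was -0.13 without 24 h replicate 2. The 24 h call ended without control replicate 2 or 3 or 24 h replicate 1 (adjusted p up to 0.063) and held in 9 of 9 refits with the block. The blocked 5 h call ended without control replicate 3 or 5 h replicate 1 or 3 (up to 0.084).

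EGR1, the zinc finger factor, dipped at 5 h and was higher again at 24 h, with a wide spread. On Bt.22265.1.S1_at the intensities were 1152, 743 and 832 in control, 137, 257 and 104 at 5 h, and 1719, 740 and 342 at 24 h. All 5 h arrays lay below all arrays of both other groups, and at 24 h replicate 1 lay above and replicates 2 and 3 below the control values. The mean went from 909 ± 215 (SD) in control to 166 ± 80.4 at 5 h and 933.5 ± 708 at 24 h, so the spread was widest at 24 h.

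The EGR1 difference at 5 h was -2.41 ± 0.53 (adjusted p = 0.12, and 0.0057 with the block), with -2.93, -1.48 and -2.82 by pair. From 5 h to 24 h EGR1 rose by 2.18 ± 0.53 (adjusted p = 0.028), with 3.50, 1.47 and 1.57 by pair. Against control the 24 h difference was -0.23 ± 0.53 (adjusted p = 0.88), with 0.57, -0.01 and -1.24 by pair. The call between the times ended without 5 h replicate 1 or 3 or 24 h replicate 1 or 2 (adjusted p up to 0.098), and both blocked calls held in 9 of 9 refits. A second EGR1 probe set, Bt.27980.1.S1_at, lay between 23.4 and 53.2 and showed no such dip, with differences of 0.09, 0.22 and 0.13 in the 3 comparisons and no call.

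IER3, a small protein linked to survival and NF-kB signalling, was the brightest member probe set and was higher at both times. Its intensities were 5170, 4177 and 5039 in control, 7343, 7184 and 8720 at 5 h, and 6350, 6749 and 6634 at 24 h. Each 5 h array exceeded each 24 h array, and each of these exceeded each control array. IER3 rose by 0.69 ± 0.11 at 5 h (adjusted p = 0.039) and by 0.46 ± 0.11 at 24 h (adjusted p = 0.036). The 24 h value stood 0.23 ± 0.11 below that at 5 h, a difference that was not called (adjusted p = 0.20, and 0.054 with the block).

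The 5 h call of IER3 held in 1 of 9 refits, that without 5 h replicate 2, and each of the other 8 omissions ended it (adjusted p up to 0.15). The 24 h call ended without control replicate 2 or 3, 5 h replicate 1 or any 1 of the 24 h arrays (up to 0.12). Centring arrays on their medians ended both calls (adjusted p = 0.077 and 0.14). With the block both calls held in 9 of 9 refits.

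IER2, which takes part in transcriptional control, was not called at either time, with or without the block. Its bright probe set, Bt.22194.1.S1_at, gave 969, 961 and 897 in control, 646, 1273 and 568 at 5 h, and 848, 635 and 582 at 24 h. The 24 h arrays lay below all control arrays, while at 5 h replicates 1 and 3 were below and replicate 2 above. The differences were -0.27 ± 0.28 at 5 h and -0.46 ± 0.28 at 24 h (adjusted p = 0.9998 and 0.39). The dimmer probe set Bt.22194.2.S1_at followed at -0.18 and -0.40, and Bt.22194.3.S1_at, not tested, lay between 4.1 and 9.7.

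KLF4, a factor of growth arrest and differentiation, was not called. It gave 2360, 1183 and 1667 in control, 2303, 1934 and 1953 at 5 h, and 2116, 2103 and 1603 at 24 h, with overlapping groups. The differences were 0.30 ± 0.23 at 5 h and 0.20 ± 0.23 at 24 h (adjusted p = 0.9998 and 0.71), and pair 2, with the lowest control, gave 0.70 and 0.82 where pairs 1 and 3 gave between -0.16 and 0.23.

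The order of a member over the groups thus took several forms. The mean of JUN was highest in control on each tested probe set and lowest at 5 h. The means of JUND and FOS on their brightest probe sets were highest at 24 h, as was that of ATF3 through replicate 2, that of IER3 at 5 h, and EGR1 had its lowest at 5 h. Neighbours in these orders that were called in neither fit were 5 h and 24 h for JUN, ATF3 and IER3, control and 5 h for JUND and FOS, and control and 24 h for EGR1.

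By likeness of pattern, taken as the root-mean-square difference of mean-centred log2 values over the 9 arrays, EGR1 was nearest to KCTD11 (0.55), NAT1 (0.69) and ANKRD49 (0.71) among 107 genes with at least 0.75 of its range. KCTD11 had mean intensities of 450.1, 120 and 464 in control, 5 h and 24 h. ATF3 was nearest to RNF19B (0.44), LYVE1 (0.56) and SYBU (0.57) among 236 genes. LYVE1 lay near the floor in control (mean 7.83), as did NAT1 and ANKRD49 at 5 h (16.2 and 14.6). For JUND the nearest were RCBTB2 (0.097), ATP6V1A (0.10) and BANP (0.10) among 3521, and for IER3 they were TMEM86A (0.14), ADNP (0.14) and LINS1 (0.15) among 2933.

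The counts of related genes below stand beside the shares of all tested probe sets called higher and lower, which were 0.233% and 0.25% at 5 h and 4.28% and 4.32% at 24 h, and with the block 2.45% and 3.41% at 5 h and 18.3% and 17.5% at 24 h. Other AP-1 and basic leucine zipper genes gave 1 call at each time among 17 tested. NFIL3, a repressor of this family, rose by 1.62 ± 0.21 at 5 h (adjusted p = 0.022), from 938 ± 285 to 2856 ± 473, and stood at 0.20 at 24 h. MAFF, a small MAF protein without a transactivation domain, rose by 1.22 ± 0.27 at 24 h (adjusted p = 0.028), from 495 ± 223 to 1111 ± 115. With the block 5 were higher and 2 lower at 5 h, and 3 higher and 2 lower at 24 h, where the 24 h counts are near the share of all probe sets. Among them, named after their values were seen, FOSL1, a FOS family partner of JUN, went from 572 ± 441 to 266 ± 184 and 304 ± 185. Its differences were -1.04 and -0.82 (adjusted p = 0.0079 and 0.0051 with the block, 0.9998 and 0.64 without). CREB1, named in the same way, was among the 5 higher at 5 h, by 1.23 (adjusted p = 0.0079 with the block, 0.099 without).

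Of 12 other early transcription factors and co-regulators tested, 2 fell at 5 h, and 1 rose and 1 fell at 24 h. MYC, a driver of growth, fell at both times, with differences of -2.16 ± 0.17 at 5 h (adjusted p = 0.0025) and -1.58 ± 0.17 at 24 h (0.0038). The repressor BHLHE40 fell by 1.64 ± 0.27 at 5 h (adjusted p = 0.041) and stood at -0.09 at 24 h. The orphan nuclear receptor NR4A2 rose by 1.72 ± 0.43 at 24 h (adjusted p = 0.042), from 865 ± 402 to 2657 ± 475. With the block 3 rose and 4 fell at 5 h, and 2 and 2 at 24 h.

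Of 20 early genes that are not transcription factors, 1 fell at 5 h, and 1 rose and 3 fell at 24 h. The pseudokinase gene TRIB1 was lower at 5 h and 24 h (-2.26 ± 0.33 and -1.38 ± 0.33, adjusted p = 0.031 and 0.036). The antiproliferative gene BTG1 rose by 0.88 ± 0.15 at 24 h (0.013), while the kinase gene PLK2 fell by 0.85 ± 0.20 (0.036) and the EGF receptor inhibitor ERRFI1 fell by 0.86 ± 0.22 (0.048). With the block 2 rose and 5 fell at 5 h, and 4 and 5 at 24 h. The medians of these 20 were -0.34 and -0.04.

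The MAP kinase pathway relays osmotic and growth signals to these genes. Its transcripts gave 0 calls in limma's test against control at either time, among 17 tested. At an unadjusted p under 0.05, 0 differed at 5 h, and 1 was higher and 4 lower at 24 h, where 11.8% of all tested probe sets were higher and 11.7% lower by that measure. With the block 0 were called at 5 h, and 2 rose and 4 fell at 24 h, near the share of all probe sets. From 5 h to 24 h 0 were called higher and 2 lower, against 8.01% and 6.15% of all. With the block 2 were higher and 4 lower over that step, against 24.2% and 19.6%. Of 15 tested genes known as AP-1 targets, 0 were called at 5 h, with 0 at an unadjusted p under 0.05, and 3 fell at 24 h. These were the cytokine gene IL6 (-3.36 ± 0.59, adjusted p = 0.015), the plasminogen activator PLAU (-0.91 ± 0.19, 0.024) and its receptor PLAUR (-0.70 ± 0.11, 0.010). With the block 2 fell at 5 h, and 1 rose and 6 fell at 24 h.

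**Figure D4:**
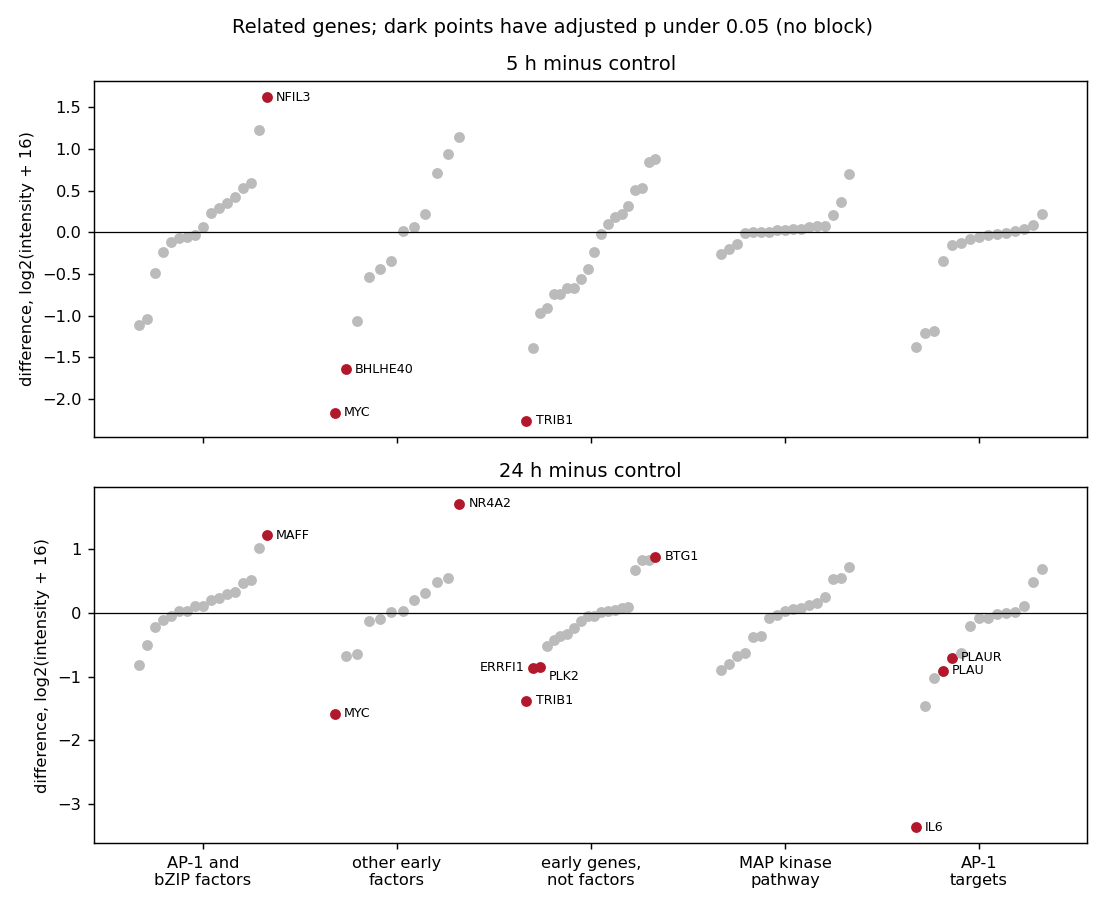
Difference from control in log2(intensity + 16) at 5 h (top) and 24 h (bottom) for the tested genes of 5 related lists, in order of size within a list. Dark, named points had an adjusted p under 0.05 without the block: NFIL3, MYC, BHLHE40 and TRIB1 at 5 h, and 10 genes at 24 h, with IL6 lowest at -3.36.

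Summed markers of some cell types were higher at 24 h than in control, those of skeletal muscle also at 5 h. The summed intensity of 7 macrophage and leukocyte markers was 197 to 207 in control, 203 to 216 at 5 h and 393 to 436 at 24 h. Most of that rise was in CD14, called at 24 h, with means of 95.6 in control and 286 at 24 h. No other marker of this list was called, and TYROBP and ITGAM were below the filter. The sum of 6 skeletal muscle markers was 695 to 759, 927 to 3102.5 and 2065 to 3372, most of it CKM. CKM was called at 24 h and not at 5 h (limma adjusted p = 0.28 at 5 h), and MYOD1 and TNNT1 were below the filter. The summed nucleus pulposus markers were 6485 to 8094.5, 6324 to 8616 and 9188 to 10287. Their tested members went both ways, and none was called. The means of ACAN (2995 at 24 h, 1261 in control) and HIF1A were higher at 24 h. Those of CDH2 (1387 at 24 h, 1638 in control), COL2A1 and KRT18 were lower. The part of these marker changes in the results above was not tested. Fewer cells of a type and less RNA per cell cannot be told apart on these arrays. The sums of 6 fibroblast markers overlapped between all groups (10519 to 17908 over the 9 arrays, with COL12A1 and THY1 called higher at 24 h), as did those of 5 endothelial (120 to 195) and 3 erythroid markers (47.6 to 118).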

How the data were processed

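The deposited table holds 24128 probe set intensities per array on a linear scale. Per the submitters' processing notes, the authors used PLIER and Affymetrix Expression Console, with versions, settings and any scaling between arrays not given in the sources used here. From these, log2(intensity + 16) was computed, 112 control probe sets were left out, and probe sets with a mean under the 25th percentile (5.05) were not tested, which left 18012. One limma model (version 3.58.1, R 4.3.3; lmFit, then eBayes with trend) took in all 9 arrays, with Benjamini-Hochberg adjustment within a comparison; the script was tested on simulated data. Deviations from the group means of same-numbered arrays correlated at 0.56 to 0.90 in all 9 pairings, with 0.88 to 0.90 for number 3. The replicate numbers of the labels were therefore taken to pair the arrays, and the fit with this block is an alternative. Deviations within a group cancel, and arrays of unlike numbers were not compared. With replicate 3 apart in every group, these correlations cannot show whether numbers 1 and 2 match between groups. Other alternatives changed the pseudocount, filter, scaling and arrays, and 2 kinds were added after seeing the data: only the arrays numbered 1 and 2, and leaving out each array with the block. Of 24016 probe sets, 13292 carry 1 symbol, 86 several and 10638 none. Genes in a list are represented by their brightest single-symbol probe set. The naming rule takes the members, from each list up to 4 called genes with the smallest adjusted p in each comparison with control, and the 3 genes nearest in pattern to the brightest probe set of each member gene for which that probe set was called. FOSL1, CREB1, CEBPD, DUSP1 and KLF5 fall outside it and were chosen after their values were seen, and marker genes are named from their lists. The members and lists were chosen with earlier results of these data known. The number of arrays limits the precision. Sequences and genome positions were not used here.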

Additional observations from a re-analysis of the deposited data

Results flagged for a closer look

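EGR1 on Bt.22265.1.S1_at differed between the times under the same control: its level at 24 h stood 2.18 above that at 5 h (limma adjusted p = 0.028). Every 24 h array lay above every 5 h array. The difference from control was -2.41 at 5 h and -0.23 at 24 h. The adjusted p was 0.060 in a fit to the 6 arrays compared and 0.0014 under the replicate block.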

How the results depend on the processing

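Without the replicate block 87, 1550 and 2551 probe sets were called at 5 h, at 24 h and between the times, and 1056, 6452 and 7884 with it; of the 17 members' probe sets 2, 4 and 1 were called without it and 7, 9 and 4 with it. Leaving out 1 array at a time gave 15 to 126, 304 to 1533 and 854 to 2429 of all, and 0 to 3, 0 to 4 and 0 to 2 of the members'. Leaving out 1 array with the replicate block gave 343 to 1960, 4144 to 7045 and 5484 to 8190 of all, and 3 to 10, 4 to 11 and 2 to 7 of the members'. Fitted to only the 6 arrays compared, 13 and 792 of all were called at 5 h and 24 h, and 0, 2 and 0 of the members'. With arrays centred on their median 57 of all were called at 5 h, and 1 and 2 of the members' at 5 h and 24 h. Quantile normalization gave 2 of the members' between the times, adding JUND (adjusted p = 0.044). With only the arrays numbered 1 and 2, 0 and 2 of the members' were called at 5 h and 24 h: ATF3 (2.14, adjusted p = 0.022) and JUN on Bt.9153.1.S1_at (-1.21, 0.041) at 24 h. Both pseudocounts and both other filters left the members' counts as they were. Of the members called with or without the block, 1 turned direction in an alternative: JUN on Bt.13134.1.S1_at at 24 h, called with the block alone, went from -0.83 to 0.44 without 24 h replicate 3. By pair that difference was -0.58, -0.78 and -1.13, and with the block it stayed at -1.13 to -0.65 in the 9 refits. The cause of the changes between settings was not tested. With fewer arrays the fit has fewer degrees of freedom. Probe sets near the floor, such as Bt.27980.1.S1_at of EGR1 and the dim ones of JUND, can hide changes.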

Other observations

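Probe sets of JUN differed among themselves in how replicate 3 compared with the mean of replicates 1 and 2 of its group. On Bt.13134.1.S1_at the log2 difference was -3.35 in control, -3.53 at 5 h and -3.80 at 24 h, while on Bt.19504.1.S1_at the same comparison gave 0.42, -0.03 and -0.02. On Bt.11159.1.S1_at it gave -0.97, -1.48 and -1.39. The dim JUND probe set Bt.19334.3.S1_at had -1.18, -1.19 and -1.76, beside -0.11, 0.02 and -0.31 on the bright JUND probe set. Among all 18012 tested probe sets, 221 (1.23%) were lower in replicate 3 by over 2 log2 units in all 3 groups, and 4 were higher by that much. The cause was not tested.

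Single arrays stood out for many of the members together. At 5 h, replicate 2 was the highest of its group on 11 of the 17 member probe sets, where it was highest on 40.4% of all tested probe sets; these were the 4 of JUN, 2 each of EGR1, FOS and IER2, and 1 dim probe set of JUND. At 24 h, replicate 1 was highest on 13 of 17 (25.4% of all) and replicate 3 lowest on 13 (43.5% of all). In control, replicate 1 was highest on 11 (29.1% of all) and replicate 2 lowest on 11 (29.3% of all). Probe sets of 1 gene are not independent, and the cause was not tested.

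Among related genes, chosen after their values were seen, CEBPD, a leucine zipper factor of inflammation, had mean intensities of 1294.5, 613 and 2728 in control, 5 h and 24 h, and rose by 2.13 ± 0.28 from 5 h to 24 h (limma adjusted p = 0.0043). DUSP1, a phosphatase that switches off MAP kinases, had 1449, 880 and 2515, and rose by 1.49 ± 0.27 from 5 h to 24 h (0.010). KLF5, a relative of KLF4, had 468, 1133 and 286, and fell by 1.78 ± 0.42 over the same step (0.026).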
